A study of Rattus norvegicus with 16 samples.

Results

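Actb and Actg1 encode the cytoplasmic actins, β-actin and γ-actin, and 4 SRF-bound regions in primary rat cells carried their names. All regions whose nearest gene was Actb or Actg1 in the authors' annotation of their SRF consensus were taken, and these were 4 of 848, with 2 for each gene. The regions came from chromatin immunoprecipitation and sequencing (ChIP-seq) of SRF, serum response factor, in wild-type (WT) oligodendrocyte lineage cells from rat brain. Immunopanning, the capture of cells on dishes coated with antibody, gave oligodendrocyte precursor cells (OPC), which grew in proliferation medium for 6 days. About equal shares of the plates were then fixed as OPC or, as oligodendrocytes (OL), on day 3 in differentiation medium. The study comprised 4 SRF libraries of OPC (replicates 1 to 4), 3 of OL (replicates 1, 2 and 4), 1 IgG library per stage and 7 inputs, with replicates from independent preparations. The series title places the question in the oligodendrocyte cytoskeleton, and the design compares SRF binding between the stages.

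SRF is a MADS-box transcription factor that binds a DNA element called the CArG box, together with MRTF proteins or ternary complex factors. MRTF cofactors are held inactive by actin monomers, so that polymerisation of actin releases them to bind SRF. Genes for actin and actin-binding proteins are textbook targets of this circuit, and CArG boxes are described in the promoter and the first intron of the human β-actin gene. In oligodendrocytes, filamentous actin drives process extension, and its disassembly accompanies the wrapping of myelin.

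The promoter sequence of Actg1 held a CArG box. The reference table of RefSeq promoters (assembly GRCr8, 250 bases before to 50 after each start) held 5 of the 6 conventional actin genes, Actb not among them. The bases before the Actg1 start are shown whole because they carry the element that SRF recognises (chr10:106120952-106121201, minus strand), with the CArG box in capitals.
Actg1 promoter: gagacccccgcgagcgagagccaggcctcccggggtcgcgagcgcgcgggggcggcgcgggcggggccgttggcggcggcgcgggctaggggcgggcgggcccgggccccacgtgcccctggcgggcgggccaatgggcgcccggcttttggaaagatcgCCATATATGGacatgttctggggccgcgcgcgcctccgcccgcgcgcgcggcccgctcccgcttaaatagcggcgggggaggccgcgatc

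The box lay 90 to 81 bases before the RefSeq start and was the only exact match in the window. A CArG box is a pair of C, then 6 letters of A or T, then a pair of G, and reads the same way on both strands. It was present in 1.64% of 33469 promoters in the table and, with 1 mismatch allowed, in 21.3%. The Actg1 window also held GGGCGG, the core of a GC box, at 6 places on either strand (33.1% of promoters had at least 1), of which one pair overlapped. CCAAT was found 120 to 116 bases before the start (37.5% of promoters), and neither TATAAA (14.2%) nor CCGGAAG, a core of ETS factor sites (8.75%), was found on either strand. G and C made up 79.2% of the 250 bases, against a median of 51.2% over all promoters. These windows belong to another assembly than the peaks and were not placed on it, so whether a box lies within a region is not given here.

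The box of Actg1 is set beside exact boxes that the same search found before the starts of related genes. Acta1 encodes skeletal muscle actin, Cnn2 a calponin that binds actin filaments, and Egr1 an immediate early transcription factor whose region varied across libraries much as an Actb region did. Boxes were searched before and after the starts of 5 actin pathway genes and of 6 genes that were nearest to such similar regions, and 1 of the 5 (Cnn2) and 1 of the 6 (Egr1) had one. Each line gives 30 bases, 5′ to 3′, with the box in capitals.
Actg1 box (chr10:106121022-106121051, minus strand): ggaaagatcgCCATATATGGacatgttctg
Acta1 box (chr19:68784269-68784298, minus strand): tgcccaacacCCAAATATGGcttgggaagg
Cnn2 box (chr7:10370364-10370393, minus strand): cgcttccacgCCTTATAAGGgcatttgccc
Egr1 upstream box (chr18:26736963-26736992, plus strand): gtcggtccttCCATATTAGGgcttcctgct
Egr1 downstream box (chr18:26736985-26737014, plus strand): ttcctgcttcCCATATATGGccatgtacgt

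The Actg1 box and the downstream box of Egr1 have the same letters. The box of Acta1 lay 94 to 85 bases before its start, close to the position in Actg1, that of Cnn2 71 to 62, and those of Egr1 105 to 96 and 83 to 74. Among the other conventional actins, Actc1 (cardiac muscle) had a box 3 to 12 bases after its start, whereas Acta2 and Actg2 (smooth muscle) had none that matched exactly. A match describes letters and is not evidence of binding.

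Depth differed between the stages and bears on every value that follows. The OPC libraries held 9054483 to 20303444 tags, OL replicate 1 held 12103611, and OL replicates 2 and 4 held 2394854 and 3363937. The share of tags that fell in the 848 regions was 0.379% in OPC replicate 4 and 0.116% to 0.217% in the other 6 SRF libraries. The fragment length estimated by the peak caller was 72 to 86 bp in 6 SRF libraries and 296 bp in OL replicate 2. Where binding per tag is discussed, fewer cells with SRF bound and less SRF per cell cannot be told apart.

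Both genes carried a pair of SRF regions upstream of or at the annotated start. At Actb (ENSRNOG00000034254, Rnor_6.0, plus strand), the upstream site (chromosome 12, 13715575 to 13716005, 431 bp) was centred 806 bp before the start of transcript ENSRNOT00000080216, in the annotated promoter. The Actb start-site region (13716462 to 13716880, 419 bp) was centred 75 bp after that start. At Actg1 (ENSRNOG00000036701, minus strand), the upstream site (chromosome 10, 109522913 to 109523201, 289 bp) lay 2211 bp before the start of ENSRNOT00000054976, between genes. The Actg1 promoter site (109521361 to 109521448, 88 bp) lay 558 bp before it. Distances in Rnor_6.0 rest on these annotated starts, at 13716596 and 109520846, and other starts were not used here.

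The 4 regions differed in how many libraries had a peak. The Actb upstream site was called in 7 of 7 SRF libraries, which held for 3.66% of all 848 regions. The Actb start-site region was called in 6, missing only OL replicate 2, and the Actg1 upstream site in 5, namely OPC replicates 1, 3 and 4 and OL replicates 1 and 4; 25.5% of regions were called in at least 5. The Actg1 promoter site was called in 2, OPC replicate 4 and OL replicate 1. No IgG peak overlapped any of the 4 or lay within 10 kb. The IgG libraries held 1551203 tags in OL and 11308414 in OPC, with 24 and 117 peaks. Absence of an IgG peak therefore says little, above all in OL. With at least 2 SRF libraries called, all 4 met the definition of a reproducible site, as did 52.8% of all regions. OL replicate 2 had 47 peaks in all, against 172 in OL replicate 4, 436 in OL replicate 1 and 232 to 714 in OPC.

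Summits at each Actb site lay close together in the libraries that had a peak. At the Actb upstream site the 7 summits lay 819 to 775 bp before the annotated start (median 810 bp), a span of 44 bp. At the start-site region the 6 summits lay 94 to 128 bp after it (median 101 bp), a span of 34 bp. The distance between both Actb summits was 879 to 940 bp in the 6 libraries with both peaks (median 906.5 bp). The summits of OPC and OL overlapped at both Actb sites.

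The edges of the Actb regions were set by single libraries. Both edges of the upstream region came from the peak of OL replicate 2, the library with the longest estimated fragment, whose peak of 431 bp was the longest of 7, the shortest being 160 bp. The per-library annotation of the start-site region varied with the peak edges: 3 peaks were placed in the promoter, 2 in the first intron and 1 in the first exon of Actb. All 6 summits there lay inside a stretch of 34 bp. Actin genes have processed copies elsewhere in mammalian genomes, and how reads with several matches were treated is not given in the sources used here. Its part in the counts over exon sequence of Actb was not tested.

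Summits at the Actg1 upstream site were more spread than those at Actb. At the upstream site the 5 summits lay 2308 to 2169 bp before the start (median 2283 bp), a span of 139 bp, with that of OPC replicate 4 nearest the gene. At the Actg1 promoter site the 2 summits lay 557 and 547 bp before the start. The distance between both Actg1 summits was 1612 bp in OPC replicate 4 and 1698 bp in OL replicate 1, the only libraries with both.

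**Figure D1:**
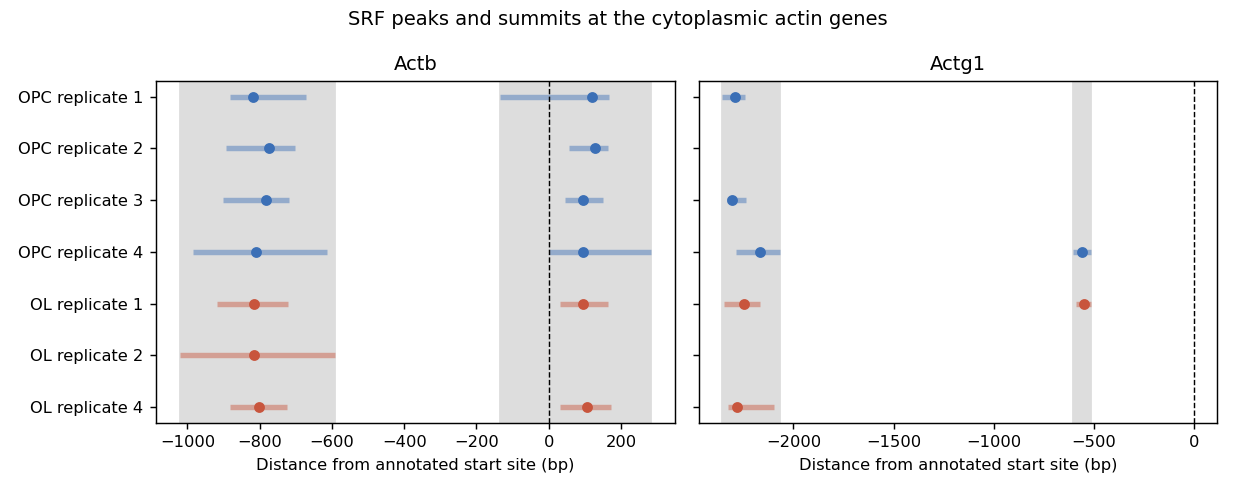
Peaks (bars) and summits (points) of each SRF library (rows; OPC blue, OL red) by distance from the annotated start (bp, dashed line at 0), with the consensus regions in grey. The Actb summits line up within 44 and 34 bp, whereas those of the Actg1 upstream site spread over 139 bp and the Actg1 promoter site has peaks in 2 libraries.

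Enrichment over the input was highest at the Actb upstream site. The authors' fold enrichment there was 13.04, 11.8, 14.7 and 27.6 in OPC replicates 1 to 4, and 27.0, 13.01 and 13.4 in OL replicates 1, 2 and 4. OPC replicate 4 and OL replicate 1 stood well above the other 5, and the stages overlapped. Within each library's own list the peak ranked from 7.11% of the way down in OL replicate 1 (31 of 436) to 26.9% in OPC replicate 1 (116 of 432). The pileup, which is the height of stacked fragments at the summit, was 15 to 48.

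At the Actb start-site region the fold enrichment was 9.90, 4.83, 10.2 and 19.2 in OPC replicates 1 to 4, and 16.5 and 12.3 in OL replicates 1 and 4. The peak of OPC replicate 2 was among the weakest of its library (225 of 232), and that of OPC replicate 4 was again the strongest of OPC. In 6 of 6 libraries with both peaks, the upstream summit had the higher fold enrichment of the pair at Actb.

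The Actg1 peaks were weaker. At the upstream site the fold enrichment was 8.65, 6.78 and 9.01 in OPC replicates 1, 3 and 4, and 6.12 and 10.7 in OL replicates 1 and 4. OL replicate 1 had the highest pileup of the 5 (20, against 10 to 14) and yet the lowest fold enrichment. Its pileup divided by its fold enrichment was 3.27, against a median of 1.56 over that library's peaks, and in the other 4 libraries this value was 1.21 to 1.62. At the Actg1 promoter site the fold enrichment was 8.40 in OPC replicate 4 and 8.62 in OL replicate 1, at ranks of 410 of 714 and 259 of 436.

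Reads over the regions gave a value in every library, called or not. At the Actb upstream site the libraries held 70, 65, 49 and 89 reads in OPC (replicates 1 to 4) and 98, 21 and 24 in OL (replicates 1, 2 and 4). Divided by the library sizes scaled by TMM over the regions, these became 54.2, 58.9, 43.7 and 49.9 normalised reads in OPC and 78.6, 128 and 82.8 in OL. All 3 OL libraries lay above all 4 OPC libraries, and the highest value, in OL replicate 2, rested on 21 reads. The peak of that library also set both edges of this region, and its part in the value was not tested.

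The Actb start-site region held 44, 41, 39 and 59 reads in OPC and 48, 6 and 20 in OL. Normalised, these were 34.1, 37.1, 34.8 and 33.1 in OPC and 38.5, 36.5 and 69.0 in OL. The OPC values were tightly grouped, OL replicate 2 fell among them, and OL replicate 4 alone stood far above.

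The Actg1 upstream site held 25, 21, 23 and 31 reads in OPC and 45, 8 and 25 in OL. Normalised, the values were 19.4, 19.0, 20.5 and 17.4 in OPC and 36.1, 48.7 and 86.3 in OL. The groups did not overlap, with the lowest OL value above the highest OPC value. The OL values differed among themselves by more than the stages' nearest libraries did, and the 8 reads of OL replicate 2 had an exact 95% Poisson interval of 3.45 to 15.8, which covers counting error only.

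The Actg1 promoter site held 9, 4, 6 and 14 reads in OPC and 15, 7 and 4 in OL. Normalised, the values were 6.97, 3.62, 5.35 and 7.86 in OPC and 12.0, 42.6 and 13.8 in OL. Again no OL library fell among the OPC libraries, and OL replicate 2 stood apart on 7 reads. In all, 3 of the 4 actin regions had every OL library above every OPC library in normalised reads, which held for 6.72% of the 848 regions and 7.0% of those tested.

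**Figure D2:**
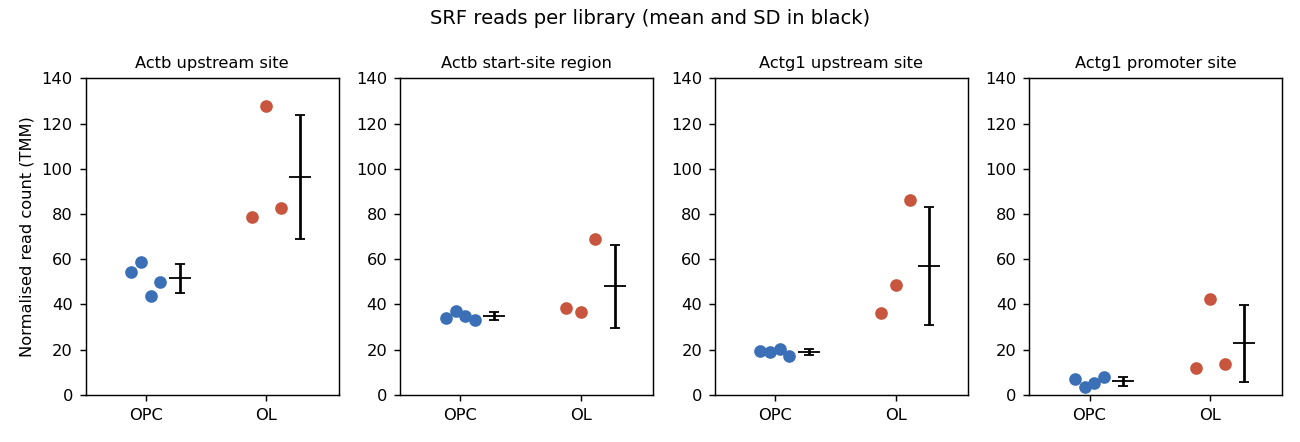
Normalised read count (TMM) of each SRF library at the 4 actin regions, by stage, with the mean and SD in black (4 OPC and 3 OL libraries). OL lies above OPC without overlap at 3 regions, and at the Actb start-site region OL replicate 2 falls within the OPC range.

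Between the stages, 1 of the 4 actin regions passed the test. The 557 of 848 regions that had 10 or more reads in 3 or more libraries were tested with edgeR's quasi-likelihood test, and 12 (2.15%) had a Benjamini-Hochberg adjusted p below 0.05, of which 2 (0.359%) were higher in OL. The Actg1 upstream site was one of these 2 and had a p that ranked 8 of all. Its mean normalised count rose from 19.1 ± 1.29 (4 OPC libraries, SD) to 57.0 ± 26.1 (3 OL libraries, SD). The log2 fold change was 1.46 ± 0.30 with its SE, and the edgeR adjusted p was 0.0364. That call was not stable. In the fit with a replicate block, which drops OPC replicate 3, the log2 fold change was 1.52 and the edgeR adjusted p 0.0906, and 0 regions passed (0.0%; 100 at an unadjusted p below 0.05). With OPC replicate 3 in place of OPC replicate 4 as the partner of OL replicate 4, it was 1.42 with an edgeR adjusted p of 0.106, and again 0 regions passed (0.0%; 92 unadjusted).

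The other 3 actin regions did not pass. At the Actb upstream site the means were 51.7 ± 6.45 in OPC and 96.4 ± 27.2 in OL, and the log2 fold change was 0.82 ± 0.21 (edgeR, adjusted p = 0.0699). At the Actb start-site region they were 34.8 ± 1.72 and 48.0 ± 18.2, and the log2 fold change was 0.42 ± 0.23 (edgeR, adjusted p = 0.331). That estimate was 0.13 without OL replicate 4 and 0.72 without OL replicate 1. The Actg1 promoter site was below the filter on reads; in the fit of all 848 regions, where 22 passed (2.59%), it had 5.95 ± 1.87 and 22.8 ± 17.1 and its log2 fold change was 1.39 ± 0.46 (edgeR, adjusted p = 0.104). All 4 estimates were above 0, as were 49.4% of the 557 tested regions, whose median log2 fold change was -0.01.

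DESeq2 on the same regions called both upstream sites, with log2 fold changes of 1.51 at Actg1 (adjusted p = 0.00211) and 0.83 at Actb (adjusted p = 0.0383), among 42 calls (7.55%), 29 of them higher in OL (5.22%). In edgeR restricted to reproducible sites, both upstream sites also passed, at adjusted p = 0.00799 for Actg1 and 0.0182 for Actb (3.95% of those sites were called higher in OL). Leaving out 1 library at a time, the Actg1 upstream site had log2 fold changes from 1.02 (without OL replicate 4) to 1.92 (without OL replicate 1). It passed in edgeR without OPC replicate 3 (adjusted p = 0.0466) and without OL replicate 1 (0.00206). It did not pass without OPC replicates 1, 2 or 4 (0.0889, 0.0599 and 0.0738) or OL replicates 2 or 4 (0.0817 and 0.0778). The Actb upstream site passed in 1 of these 7 fits, that without OL replicate 1 (log2 fold change 1.00, edgeR adjusted p = 0.0341).

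**Figure D3:**
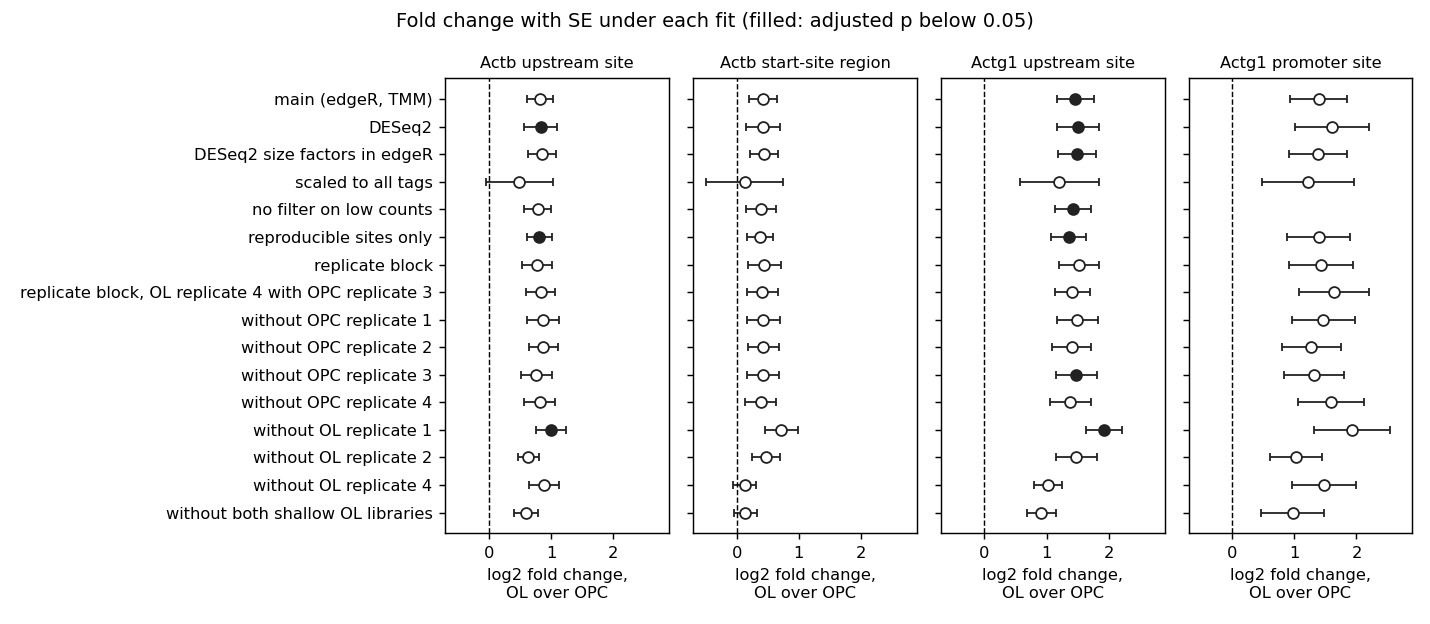
Log2 fold change of OL over OPC with its SE (x axis) under each fit (rows) at the 4 actin regions; filled points have an adjusted p below 0.05, and the Actg1 promoter site comes from fits without the filter on reads wherever the filter would remove it. All points lie above 0, and the Actg1 upstream site passes in the main fit and in 6 of its 15 alternatives.

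**Figure D4:**
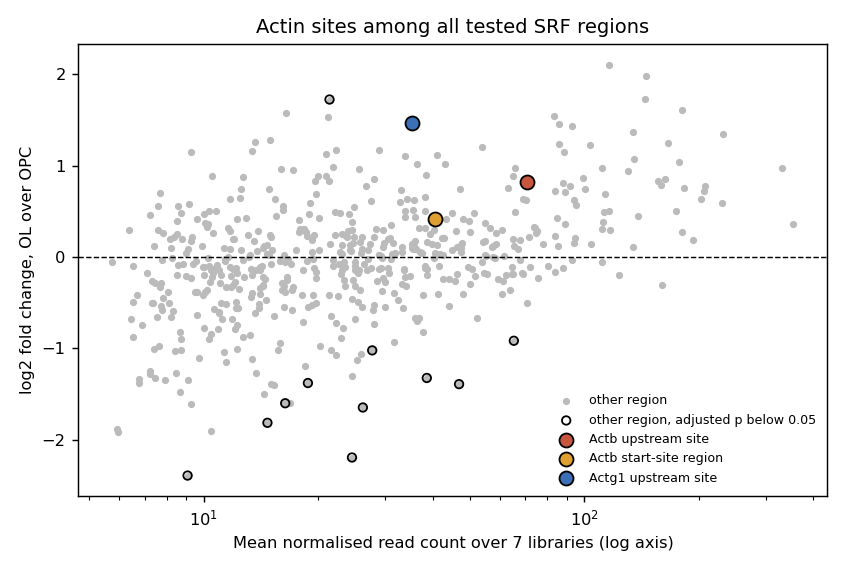
Log2 fold change of OL over OPC against the mean normalised read count (log axis) for the 557 tested SRF regions, with the 3 tested actin regions coloured and other regions past the threshold circled. The Actg1 upstream site is one of 2 regions past the threshold above 0, and 10 lie below 0.

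Scaling to all tags, in place of reads in the regions, removed the separation. Reads per 1000000 tags (RPM) at the Actg1 upstream site were 2.02, 1.03, 1.96 and 3.42 in OPC and 3.72, 3.34 and 7.43 in OL. OPC replicate 4, the library with the largest share of tags in regions, exceeded OL replicate 2. At the Actb upstream site the values were 5.64, 3.20, 4.18 and 9.83 in OPC and 8.10, 8.77 and 7.13 in OL, so that OPC replicate 4 had the highest value of all.

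At the Actb start-site region they were 3.55, 2.02, 3.33 and 6.52 in OPC and 3.97, 2.51 and 5.95 in OL. At the Actg1 promoter site they were 0.726, 0.197, 0.512 and 1.55 in OPC and 1.24, 2.92 and 1.19 in OL. The stages overlapped at 4 of 4 actin regions on this scale, where 2.24% of all regions had every OL library above every OPC library. Exact two-sided permutation tests over libraries gave p = 0.114 for the Actg1 upstream site, 0.171 for the Actg1 promoter site, 0.286 for the Actb upstream site and 0.857 for the Actb start-site region. Over these 4 comparisons the adjusted p was 0.343, 0.343, 0.381 and 0.857. With 4 against 3 libraries this test cannot give a p below 0.0571. It also leaves out the pairing by preparation. An exact test that flips the signs of the 3 paired differences by title gave p = 0.25 at the Actg1 upstream site, the smallest it can give. The same sign-flip test gave 0.5 at the Actg1 promoter site, 0.75 at the Actb upstream site and a larger p at the Actb start-site region. In edgeR scaled to all tags, the Actg1 upstream site had a log2 fold change of 1.20 (adjusted p = 0.719), the median of all tested regions was -0.35, and 0 regions passed (40 at an unadjusted p below 0.05).

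Ratios within preparations depend on how the libraries are paired. The library titled OL replicate 4 is numbered 3 in the file headers, so its partner is OPC replicate 4 by title and OPC replicate 3 by header. Paired by title, the ratios of OL to OPC in RPM at the Actg1 upstream site were 1.84, 3.23 and 2.17 for numbers 1, 2 and 4. OL was higher there in 3 of 3 pairs, as at 8.96% of all 848 regions. The Actb upstream site was 1.43 and 2.74 times as high in OL for numbers 1 and 2, and for number 4 the ratio was 0.726. The Actb start-site region had ratios of 1.12, 1.24 and 0.912, and the Actg1 promoter site 1.71, 14.8 and 0.769. With OPC replicate 3 as the partner, the third ratio became 1.71 at the Actb upstream site, 1.79 at the Actb start-site region, 3.78 at the Actg1 upstream site and 2.32 at the Actg1 promoter site. OL was then higher in 3 of 3 pairs at all 4 actin regions, as at 17.8% of all regions. In normalised reads, 3 of the 4 actin regions, all but the Actb start-site region, were higher in 3 of 3 pairs under either pairing (17.6% of all regions by title and 16.4% by header). The value of 14.8 compares 7 reads in OL replicate 2 with 4 in OPC replicate 2.

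**Figure D5:**
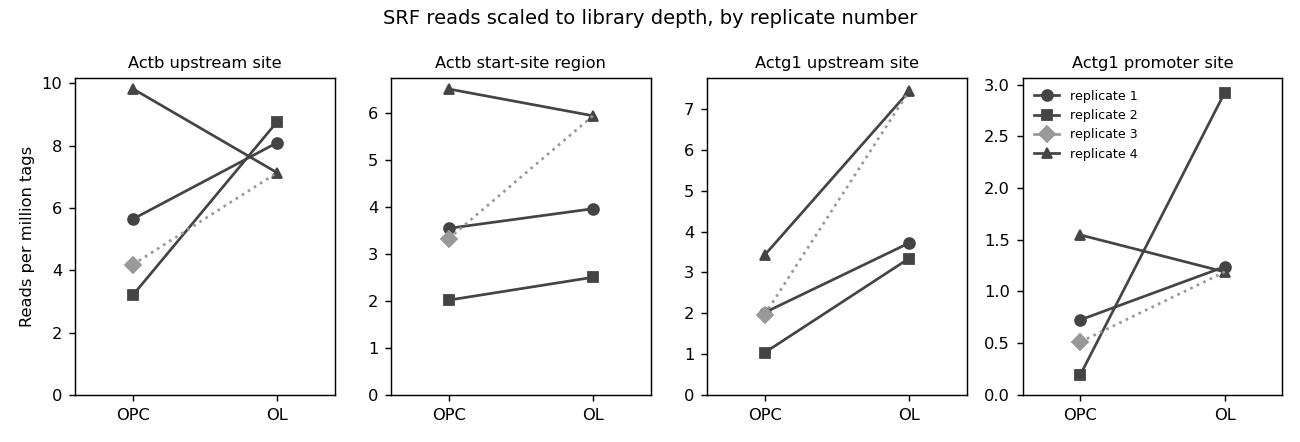
Reads per 1000000 tags (RPM) at the 4 actin regions (y axes differ) in OPC and OL, with solid lines joining libraries of the same replicate number by title and a dotted line joining OPC replicate 3 to OL replicate 4, which is numbered 3 in the file headers. Solid lines rise in 3 of 3 pairs at the Actg1 upstream site and in 2 of 3 at each of the other regions, and the dotted line rises at all 4.

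Ratios between sites of the same library need no scaling between libraries. At Actb the upstream site held 1.59, 1.59, 1.26 and 1.51 times the reads of the start-site region in OPC and 2.04, 3.50 and 1.20 times in OL. The upstream site was the larger in 7 of 7 libraries, and the OL libraries lay on both sides of OPC (exact two-sided permutation test of log2 ratios, p = 0.343). The ratio of 3.50 was that of OL replicate 2 (21 reads against 6), whose peak set both edges of the upstream region. At Actg1 the upstream site held 2.78, 5.25, 3.83 and 2.21 times the reads of the promoter site in OPC and 3.00, 1.14 and 6.25 times in OL (exact p = 0.743). These Actg1 ratios compare regions of unequal length, 289 and 88 bp.

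Per kilobase the order of the actin regions differed between the stages. In OPC the mean RPM per kilobase was 13.3 at the Actb upstream site, 9.20 at the Actb start-site region, 8.47 at the Actg1 promoter site and 7.30 at the Actg1 upstream site. In OL it was 20.3 at the Actg1 promoter site, 18.6 at the Actb upstream site, 16.7 at the Actg1 upstream site and 9.88 at the Actb start-site region. The Actg1 promoter site stood at 33.2 in OL replicate 2, on 7 reads, and at 14.1 and 13.5 in OL replicates 1 and 4. The libraries' ranges overlapped between neighbours in both orders. These values divide by region length alone, while a read counted once 0.2 of it lay inside the region. That raises the value of a short region more, and the Actg1 promoter site had 88 bp. Its part in the order was not tested. Over all 7 libraries the 4 means lay between 9.49 and 15.5, above the median of all regions, 7.29.

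The balance between the genes shifted in 1 library. The Actg1 upstream site held 0.357, 0.323, 0.469 and 0.348 of the reads of the Actb upstream site in OPC, and 0.459, 0.381 and 1.04 in OL. OL replicates 1 and 2 fell within the OPC range, and OL replicate 4 stood apart (25 reads against 24). The log2 ratio averaged -1.41 ± 0.23 over 4 OPC libraries and -0.80 ± 0.75 over 3 OL libraries (SD; exact two-sided permutation test, p = 0.171). Over the 3 site ratios the adjusted p was 0.514 for this and for the Actb ratio and 0.743 for the Actg1 ratio.

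The regions most like the actin regions across the 7 libraries were found by the root mean square difference of their centred log2 normalised reads, among 427 other reproducible sites with enough reads. Closest to the Actb upstream site were AC120246.2 (0.144), Mob3a (0.146), Egr1 (0.163), Pdcl3 (0.171) and Cbx8 (0.185), against a median of 0.660. The Egr1 region averaged 162 normalised reads over the OPC libraries and 258 over those of OL (log2 fold change 0.63; edgeR, adjusted p = 0.203). Closest to the Actg1 upstream site were Wdr1 (0.375), Tada3 (0.389), Egr3 (0.393), Ythdc2 (0.401) and 5S_rRNA (0.408), against a median of 0.914. Each region carries the name of the nearest gene, which can be far away. The region named Ythdc2 lay 1436086 bp from that gene's start, that of Cbx8 at -12722 bp and that of 5S_rRNA at -8964 bp (negative is before the start). The matches to Actg1 were less close than those to Actb. These root mean square differences describe 7 shared libraries, among them the 2 shallow ones.

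Of the other conventional actin genes none had an SRF region, whereas some actin pathway genes did. None of Acta1, Acta2, Actc1 and Actg2 carried 1 of the 848 regions. Of 55 genes for actin-binding and adhesion proteins, 11 had a region, 6 a reproducible site and 5 such a site within 10 kb of the start. Of 47286 RefSeq gene symbols, 1.25% had a region and 0.727% a reproducible site. These symbols were not filtered by gene type, and only region names that matched one were counted. The shares are therefore not a like-for-like base for the list. The genes were listed with these data known, so these counts are a description. Of their 7 tested regions 0 passed in edgeR and 0 in DESeq2, against 2.15% and 7.55% of all tested regions. At an unadjusted p below 0.05 there was 1 in edgeR (Wdr1) and there were 2 in DESeq2, against 21.9% and 20.3% of all. Log2 fold changes were above 0 in 6 of the 7, with a median of 0.56, and in 49.4% of all tested regions. Wdr1, whose protein helps cofilin to take filaments apart, had a promoter region called in 4 libraries. It held 15.3 ± 3.36 normalised reads at the OPC stage and 29.4 ± 5.69 as OL (edgeR adjusted p = 0.111). Every OL library lay above every OPC library there, in 1 of the 7 tested regions, as at 7.0% of all tested regions. Among list regions below the filter on reads, those of Fermt2 and Cap1 also had this order, which held for 6.72% of the 848 regions. They averaged 3.67 and 3.24 normalised reads in OPC. In the rest of the 12 list regions the stages overlapped. Cnn2, whose CArG box is shown above, was also called in 4 libraries, with 14.9 ± 5.59 and 23.0 ± 17.2 and overlapping stages (edgeR adjusted p = 0.773).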

How the data were processed

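The members, lists and tests were chosen with earlier results of these data known. Chromatin was sheared in 7 cycles, amplified in 12 PCR cycles and sequenced as 75 bp single reads, per the labels. Trim Galore, BWA, MACS2, HOMER and deepTools, and the build Rnor_6.0, are in the submitters' processing notes. Peaks were called by the authors in each library against its input with MACS 2.2.7.1 at a q-value of 0.05, per the file headers. The deposited peak tables give a pileup signal, a fold enrichment ratio over local background and the −log10 of the q-value. The deposited table of raw counts over 848 consensus regions was made with featureCounts 2.0.1 (at least 0.2 of a read inside the region), per the file headers. Its starts were 1 below those of the annotation in 848 of 848 regions, and the annotation's were used. Depth is the tag total in the peak tables' headers.

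A region was called in a library when a peak overlapped it by at least 1 bp, and was a reproducible site with at least 2 SRF libraries called and no IgG peak. Counts were tested with edgeR 4.0.16 (R 4.3.3; TMM, quasi-likelihood), with DESeq2 1.42.0 as an alternative, with Benjamini-Hochberg adjustment over all regions tested. Normalised reads are counts over the library size after TMM, itself set relative to its mean. TMM removes a change common to all regions. Ratios within a library used a pseudocount of 0.5 reads in their tests, and single values were compared by exact permutation over 35 splits with scipy 1.17.1. The named regions are the 4 actin regions, list genes with a region, and the 5 regions nearest to each upstream site. Counts were simulated for all 7 libraries under the design of OL against OPC, and 528 simulated regions passed the filter on reads. The edgeR fit found 17 of 63 regions with a 1.5-fold change, 40 of 65 with a 2-fold and 60 of 61 with a 4-fold change. It also found 2 of 339 without any change. The share of changed regions was set by the simulation, and the spread between libraries followed the fitted trend alone. Detection in the data, where 12 of 557 regions passed, may therefore be lower.

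Preparations were divided between the stages, per the labels, so numbers 1, 2 and 4 pair OPC with OL. The library titled OL replicate 4 is numbered 3 in the file headers, and pairing it with OPC replicate 3 was an alternative chosen after seeing the data. Across regions the departures from the stage mean correlated at 0.09, 0.27 and 0.16 between partners by title. The correlation was 0.07 for OPC replicate 3 with OL replicate 4, and 0.28 for OPC replicate 4 with OL replicate 1. IgG reads over these regions and input reads were not analysed here. ChIP-seq does not measure expression, so cell identity was not checked against markers.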

Additional observations from a re-analysis of the deposited data

How the results depend on the processing

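The count of regions past the threshold, 12, was 42 with DESeq2, 22 without the filter on reads, 35 on reproducible sites, 0 with all tags as library size, 0 with the replicate block under either pairing and 1 without both shallow OL libraries; leaving out 1 library gave 1 (without OPC replicate 4) to 31 (without OL replicate 1), and 4 without OPC replicate 1 or 2, 7 without OL replicate 2 and 6 without OL replicate 4. The log2 fold change of the Actg1 upstream site, 1.46, no longer passed with all tags (1.20), with the replicate block (1.52, or 1.42 with OPC replicate 3 as partner of OL replicate 4) or without both shallow OL libraries (0.91, edgeR adjusted p = 0.149), and ranged from 1.02 to 1.92 leaving out 1 library. The fit without both shallow OL libraries has 1 OL library, takes its spread from OPC alone and so says little about stability. That of the Actb upstream site, 0.82, passed with DESeq2 (0.83) and on reproducible sites (0.81), and ranged from 0.64 to 1.00 leaving out 1 library (0.77 with the replicate block, edgeR adjusted p = 0.159). The Actb start-site region and the Actg1 promoter site passed in none of the fits run, with 0.13 to 0.72 and 1.03 to 1.93 leaving out 1 library. In RPM, OL minus OPC at the Actb start-site region was 0.286 and turned to -0.326 without OPC replicate 2 and -0.618 without OL replicate 4 (range -0.618 to 1.17 leaving out 1 library). The log2 ratio of the Actg1 upstream to promoter site, -0.25 for OL minus OPC, turned to 0.36 without OL replicate 2 (range -0.80 to 0.36). The cause of these shifts was not tested. The other 125 values under alternatives kept their direction and their side of the threshold, though not always their size, or, for counts, stayed within 1.5 times the main value. Among them, 38 in RPM and 29 site ratios came from exact tests over libraries or pairs that cannot give a p below 0.05. For these, only the direction could have changed. Few reads limit the actin regions in OL replicate 2, with 6 to 21 reads each. They also limit the Actg1 promoter site in every library, with 4 to 14 reads in OPC and 4 to 15 in OL.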

Other observations

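Srf, the gene of the factor itself, carried 2 of the 848 regions, while none of the 7 listed cofactor symbols (the MRTF genes under both of their names, Elk1, Elk3 and Elk4) carried one. The Srf promoter region, centred 40 bp before the annotated start, was called in 4 libraries and averaged 19.0 ± 7.00 normalised reads over 4 OPC libraries and 30.9 ± 21.3 over 3 OL libraries (SD). The stages overlapped and the log2 fold change was 0.47 ± 0.41 (edgeR, adjusted p = 0.607). Of 4 OPC marker genes only Cspg4 carried a region, 30392 bp from its start and with an IgG peak, and 0 of 6 oligodendrocyte marker genes carried one. Of 47286 RefSeq gene symbols, not filtered by gene type, 1.25% carried a region, so absence from lists this short, the cofactors included, says little. Coro1c, a coronin that binds actin filaments, had its region called in 7 of 7 libraries but 39354 bp from the annotated start, at 27.4 ± 6.25 normalised reads for the OPC stage and 52.4 ± 28.9 for OL (edgeR adjusted p = 0.283). Among the 5 actin pathway genes with a reproducible site and a promoter in the table, 1 had an exact CArG box, Cnn2.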
